A study of Mus musculus with 12 samples.

Results

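miR-423 and miR-671 are microRNA hairpins, and each can give a mature miRNA from either of its arms, named 5p and 3p after the end of the hairpin they come from. The 4 arms are 4 of the 430 miRNA names that occur in 12 small RNA libraries of mouse cells. They were found by name, whatever the case, species prefix, star mark or copy number of the entry. miR-423-5p, miR-423-3p and miR-671-5p were listed in 12 of 12 libraries and miR-671-3p in 3 of 12. The pair was picked with its values in these libraries already known, so the levels and ratios below are a description and carry no test.

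The libraries cover 4 cell types in 3 genotypes, with 1 library per combination and so no replicate of any of them. DN3 thymocytes, T cell precursors without CD4 or CD8, were sorted from the thymus of Lck-cre mice (control), Drosha Lck-cre mice or Dicer Lck-cre mice. CD4+CD25+ Treg cells (regulatory T cells) and CD4+ T cells were isolated by sorting, with spleen and lymph nodes as the source, in CD4-cre, Drosha CD4-cre or Dicer CD4-cre mice. MEF (embryonic fibroblasts) came from E14.5 embryos that carried Rosa26-CreER, alone or with Drosha or Dicer. The mice were 6 to 7 weeks old and backcrossed to C57BL/6. The controls carry the Cre transgene too. Lck-cre acts in T lineage cells of the thymus, CD4-cre in cells that have passed a CD4 stage, and CreER needs an added ligand, whose use is not stated in the sources used here. The completeness of each deletion was not measured by these lists, and how many mice or cultures each library holds is not given.

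Most miRNAs need a pair of RNase III enzymes: Drosha, a nuclear enzyme, frees the hairpin from its longer transcript, and Dicer, in the cytoplasm, takes off the loop. Drosha therefore makes the 5′ end of a 5p arm and the 3′ end of a 3p arm, and Dicer makes the ends on the loop side. One arm of the resulting duplex is usually kept in an Argonaute protein and the other degraded, so most hairpins show a major and a minor arm. The seed, bases 2 to 8, does most of the pairing with target mRNAs. A few hairpins, among them mirtrons made by splicing and short hairpins such as miR-320, form without Drosha.

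The mature sequences from RefSeq (build GRCm38.p6) are shown with the seed in capitals, because the arms are compared by seed and by end.
miR-423-5p: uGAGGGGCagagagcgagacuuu
miR-423-3p: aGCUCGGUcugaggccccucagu
miR-671-5p: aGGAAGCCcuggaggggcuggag
miR-671-3p: uCCGGUUCucagggcuccacc
The first 3 have 23 bases and miR-671-3p has 21. No pair among the 4 shares a seed. Of the other mature miRNAs in the table only miR-6921-5p has the seed of miR-423-5p, and none has that of the other 3 arms. miR-6921-5p was not listed in any library.

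The hairpins are shown with both mature arms in capitals, to place the 2 arms and the loop between them.
miR-423: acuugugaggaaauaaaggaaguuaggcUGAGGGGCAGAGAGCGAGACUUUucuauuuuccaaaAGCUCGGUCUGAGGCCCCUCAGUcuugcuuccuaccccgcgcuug
miR-671: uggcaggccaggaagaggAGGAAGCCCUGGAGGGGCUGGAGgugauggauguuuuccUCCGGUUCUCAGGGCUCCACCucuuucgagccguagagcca
The miR-423 hairpin (chromosome 11, 77078064 to 77078172, minus strand, GRCm38) lies in an intron of Nsrp1, a splicing regulator gene on the same strand. The miR-671 hairpin (chromosome 5, 24592114 to 24592211, plus strand) lies within a coding exon of Chpf2, a gene of chondroitin synthesis, on the same strand. It also overlaps a retained-intron transcript of Smarcd3 on the opposite strand. The arms are parted by 13 bases in miR-423 and 16 bases in miR-671. GC content was 56.5% in miR-423-5p, 65.2% in miR-423-3p, 69.6% in miR-671-5p and 66.7% in miR-671-3p, against a median of 52.2% over 1738 mature mouse miRNAs. miR-671-5p had 52.2% G, more than 95.5% of these miRNAs. The longest run shared by both 5p arms is GAGGGGC. It is the seed of miR-423-5p but lies at bases 12 to 18 of miR-671-5p, and 7 of the 1738 mature miRNAs (0.403%, read on the strand of the miRNA) hold it.

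The libraries differ in depth and format, and this bears on every value. The authors normalised the values to nearly equal totals, from 893850 to 1027032, with 85 to 312 miRNAs listed. The DN3 and Treg lists give single sequences and none below 10, and their depth is unknown. The CD4 and MEF lists give 1 value per mature miRNA, and the steps of their low values imply their read numbers. These were 100000 (control), 7600 (Drosha) and 6200 (Dicer) in CD4, and 275000, 77400 and 275500 in MEF. The shallow CD4 Drosha and CD4 Dicer libraries list nothing below 526 and 645. In them 1 entry, miR-689, took 37.8% and 30.1% of the listed values, against 3.06% in CD4 control. T lymphocyte marker miRNAs took from 4.85% to 18% in the 9 T cell libraries, with 5 or 6 of 6 listed. In MEF they took from 0.654% to 0.822%, with 4 or 5 listed. The fibroblast markers took from 59.9% to 72.6% in MEF, but also 15.3% in CD4 control, 6.84% in CD4 Drosha and 14.3% in CD4 Dicer, nearly all of it miR-22. Erythroid markers took 0.120% in Treg control, 0.831% in Treg Drosha and 0.0975% in Treg Dicer. In DN3 they took 0.556%, 0.450% and 0.886% in the same order of genotypes. The myeloid marker miR-223 took 0.00239%, 0.0573% and 0.0734% in Treg and 0.00282%, 0.00151% and 0.0122% in DN3, again in that order. The part of these other cells in the Treg and DN3 ratios was not tested. In bulk libraries fewer cells of a type and less RNA per cell cannot be told apart.

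miR-423-5p was the most abundant of the 4 arms in every library. Its normalised value was 1191 in DN3 control, 2399 in DN3 Drosha and 1690 in DN3 Dicer. In Treg it was 2635 in control, 1601 in Drosha and 1731 in Dicer. It reached 102210 in CD4 control, where it ranked as number 2 of 272 miRNAs with 10.2% of the library, and was 10658 in CD4 Drosha and 30161 in CD4 Dicer. MEF gave 5316 in control, 3127 in Drosha and 4808 in Dicer. The 3 CD4 libraries thus stood above the other 9, and DN3 was the one cell type in which both deletion libraries lay above control.

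miR-423-3p, from the other arm of the same hairpin, followed a similar order at lower values. It was 822 in DN3 control, 740 in DN3 Drosha and 938 in DN3 Dicer. In Treg it was 992, 481 and 545 in control, Drosha and Dicer. In CD4 it was 45400, 2895 and 7258, and in MEF 3284, 866 and 2959, in the same order of genotypes. The Drosha library had the lowest value of the 3 genotypes in each of the 4 cell types.

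miR-671-5p was lower than both miR-423 arms in 10 of the 12 libraries, and equal to or above miR-423-3p in CD4 Dicer and CD4 Drosha. It was 420 in DN3 control, 391 in DN3 Drosha and 390 in DN3 Dicer. In Treg it was 201, 83 and 126 in control, Drosha and Dicer, the lowest values of the 3 arms listed everywhere. In CD4 it was 26670, 3158 and 7258, and in MEF 3036, 452 and 2522. The 3 genotypes lay close together in DN3 and far apart in CD4 and MEF.

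miR-671-3p, the minor arm, was listed at 110 in CD4 control (about 11 reads), 36 in MEF control (about 10 reads) and 26 in MEF Dicer (about 7 reads). It was not listed in the other 9 libraries, which means below 10 per sequence in DN3 and Treg, below 526 and 645 in CD4 Drosha and CD4 Dicer, and below 13 in MEF Drosha. At the arm ratio of the control library of the same cell type, MEF Drosha would hold a value of 5.36, or 0.415 reads, and CD4 Drosha 13.0, or 0.0990 reads. Its absence there was not detectable as a change at this depth.

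**Figure D1:**
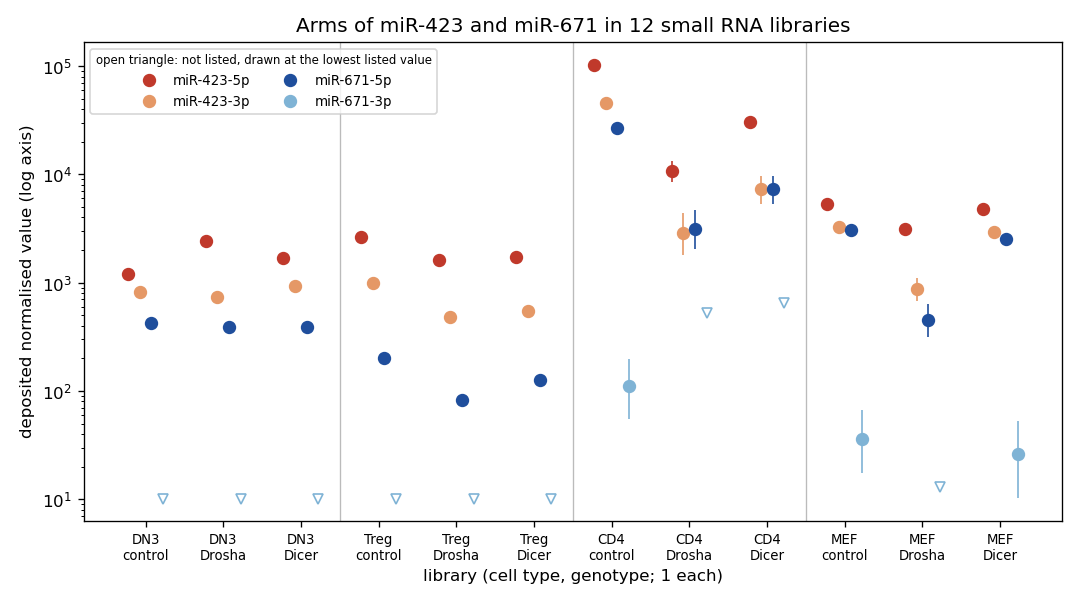
Normalised value of the 4 arms (log axis) in the 12 libraries, grouped by cell type and genotype. Lines are 95% exact intervals from implied reads where these could be had, and open triangles mark an arm that was not listed, at the lowest value of that library. The 3 arms listed everywhere are highest in CD4 control, at 102210, 45400 and 26670.

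Among the control libraries the order of all 3 arms began with CD4 and then MEF. miR-423-5p and miR-423-3p were next in Treg and lowest in DN3, and miR-671-5p was lowest in Treg. The CD4 control value was 85.8 times the DN3 control value for miR-423-5p and 55.2 times for miR-423-3p. For miR-671-5p it was 133 times the Treg control value. Counting intervals parted CD4 control from MEF control for miR-423-5p (100339 to 104104 against 5048 to 5595). With 1 library each, no spread between samples is available for these neighbours. The sequence lists of DN3 and Treg and the miRNA lists of CD4 and MEF differ in how they were tabulated. The folds between them describe the lists. Other entries also parted by kind of list, in either direction. miR-16 was 136868 in DN3 control and 114923 in Treg control, against 540 in CD4 control and 193 in MEF control. In the same order miR-29a was 15114, 87488, 50 and 113, and miR-210 was 53, 54, 36220 and 4051. Kind of list goes with cell type here, and they cannot be told apart.

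The 2 arms of miR-423 come from 1 hairpin, so their ratio does not move with the scaling of a library. The 5p arm held 59.2% of the hairpin's value in DN3 control, 76.4% in DN3 Drosha and 64.3% in DN3 Dicer. In Treg it held 72.6%, 76.9% and 76.1% in control, Drosha and Dicer. The 5p share was higher in the Drosha library than in control in each of the 4 cell types, and the 4 Drosha libraries lay close together, from 76.4% to 78.6%, while the 4 controls ran from 59.2% to 72.6%.

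In CD4 control the 5p share was 69.2% (95% exact interval 68.5 to 70.0%), in CD4 Drosha 78.6% (69.5 to 86.1%) and in CD4 Dicer 80.6% (74.9 to 85.5%). In MEF control it was 61.8% (59.8 to 63.8%), in MEF Drosha 78.3% (73.3 to 82.8%) and in MEF Dicer 61.9% (59.8 to 64.0%). These intervals cover counting error only and rest on implied reads, 81 and 22 for the 2 arms in CD4 Drosha and 242 and 67 in MEF Drosha. The MEF Drosha interval lies above that of MEF control, those of CD4 control and CD4 Drosha overlap, and MEF Dicer matches MEF control.

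The change in the 5p to 3p ratio from control to Drosha was 2.24-fold in DN3, 1.25-fold in Treg, 1.64-fold in CD4 and 2.23-fold in MEF. From control to Dicer it was 1.24-fold in DN3, 1.2-fold in Treg, 1.85-fold in CD4 and 1.0-fold in MEF. Arm ratios of other hairpins also differed between these libraries. Between control and Drosha a change of 1 log2 unit or more was seen in 41.9% of 31 hairpins with both arms listed in DN3 and in 8.57% of 35 in Treg. In CD4 it was seen in 20.0% of 5, and in MEF in 47.9% of 48. By size of change miR-423 was number 10 of 31 in DN3 and number 21 of 48 in MEF, so a change of its size was common there. These hairpins were taken at any listed value, so their changes include counting error in arms near the floor. In MEF Drosha, let-7a* was at 13 and miR-27a* at 26, against 866 for miR-423-3p. Between control and Dicer such changes made up 9.76% of 41 hairpins in DN3 and 14.7% of 34 in Treg. They made up 30.0% of 10 in CD4 and 8.33% of 60 in MEF, and miR-423 reached 1 log2 unit in none of these.

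Both arms of miR-423 held a sizeable share of the hairpin's value, while miR-671 was nearly all 5p where both of its arms were listed. The minor arm of miR-423, 3p, held from 19.4% to 40.8% of the hairpin. The median minor arm of all hairpins with both arms listed was 3.17% in DN3 control (48 hairpins), 1.75% in Treg control (40), 9.04% in CD4 control (53) and 10.9% in MEF control (70). By this share miR-423 was number 3 in DN3 control, number 3 in Treg control, number 8 in CD4 control and number 6 in MEF control. In the deletion libraries it ranged from number 2 of 42 in DN3 Dicer to number 21 of 54 in MEF Drosha, and in CD4 Dicer, at number 7 of 10, it lay below the median of 29.7%. The minor arm of miR-671 held 0.411% (0.205 to 0.734%) in CD4 control, 1.17% (0.569 to 2.17%) in MEF control and 1.02% (0.402 to 2.04%) in MEF Dicer. These shares were number 50 of 53, 63 of 70 and 62 of 68. In DN3 control the floor of 10 would correspond to 2.33% of miR-671, so a share like that in MEF could not be seen there.

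**Figure D2:**
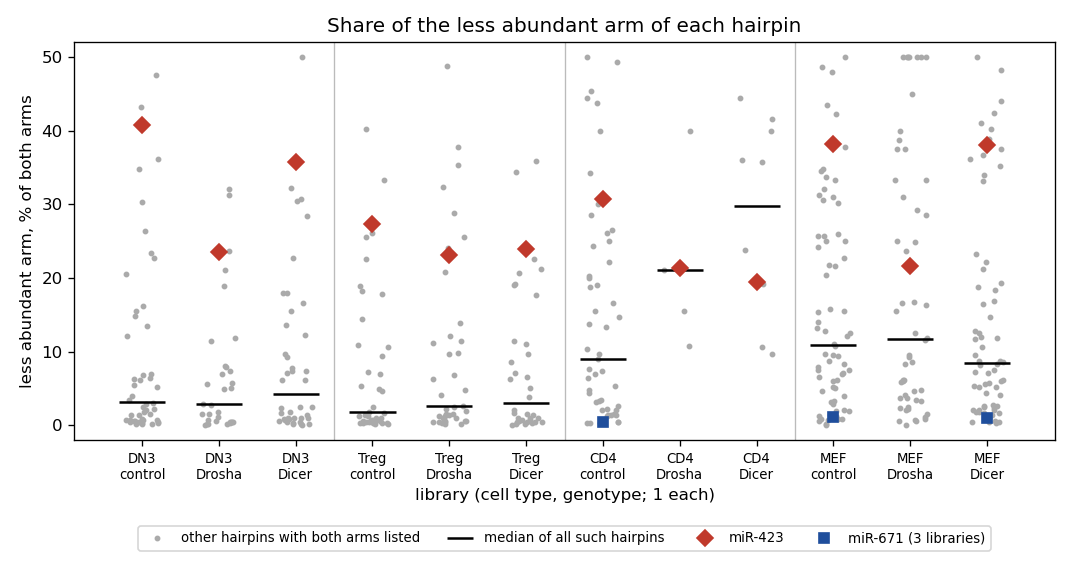
Share of the less abundant arm (% of both arms) for each hairpin with both arms listed, in each of the 12 libraries. Grey points are other hairpins, black bars the median of all, red diamonds miR-423 and blue squares miR-671. miR-423 lies at 40.8% in DN3 control and 38.2% in MEF control, and between 21.4% and 23.6% in the 4 Drosha libraries; CD4 Drosha and CD4 Dicer hold only 5 and 10 such hairpins.

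The Drosha libraries were set against control for each arm. A loss common to every miRNA does not show in relative values, so the need of an arm for the nuclear cut was not tested. Ratios are given relative to the median miRNA among those listed at 50 or more in both libraries, as log2 values with a pseudocount of 0.5, and a fold of 1 log2 unit is used to count. In DN3, miR-423-5p stood 1.27 above the median miRNA, where 9.35% of 139 miRNAs stood 1 unit or more above it. In DN3 miR-423-3p lay at 0.11 and miR-671-5p at 0.16 relative to the median, or -0.15 and -0.10 on the deposited scale, so their sign turns with the scaling. In Treg, miR-671-5p was 2.42-fold lower in Drosha than in control on the deposited scale and 1.07 log2 units below the median miRNA, where 5.38% of 130 were 1 unit or more below. With a pseudocount of 10 it was at -0.98, inside the fold. miR-423-3p at -0.84 and miR-423-5p at -0.51 stayed inside the fold in Treg, though on the deposited scale miR-423-3p was at -1.04.

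In CD4 the Drosha library lay far below control for all 3 arms. Relative to the median miRNA the ratio was -1.96 for miR-423-5p, -2.67 for miR-423-3p and -1.77 for miR-671-5p, and 26.3% of 76 miRNAs were 1 unit or more below. On the deposited scale the values were 9.59-fold, 15.7-fold and 8.45-fold lower. With miR-689 left out of both libraries they were 5.60-fold, 9.15-fold and 4.93-fold lower, an alternative chosen after the data were seen. Other high entries stayed in. miR-320 was 141711 in CD4 Drosha against 28580 in CD4 control, and miR-484 was 87105 against 3670. Of the 76 miRNAs, 29 stood 1 unit or more above the median miRNA. Besides miR-689, miR-320 and miR-484 they included miR-709 (23947 against 1170), miR-1937a (36974 against 6740) and miR-1959 (11316 against 190). The median miRNA and the 26.3% take in all such entries, and whether each is a true miRNA was not tested. The CD4 Drosha values rest on about 81, 22 and 24 reads, with 95% intervals of 8473 to 13230, 1815 to 4379 and 2024 to 4695, all below CD4 control. Only a miRNA of at least 526 in CD4 Drosha can enter this comparison. The part that depth, miR-689 and the other high entries play in it was not tested.

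In MEF, miR-671-5p was 6.72-fold lower in Drosha than in control on the deposited scale (about 35 against 835 reads) and 1.84 log2 units below the median miRNA. miR-423-3p was 3.79-fold lower, or 1.01 units below the median, just past the fold. Of the 169 miRNAs compared, 13.6% were 1 unit or more below. miR-423-5p stood at 0.14 relative to the median but at -0.77 on the deposited scale. The 2 arms of miR-423 therefore lay on different sides of the fold in MEF and in DN3, and on the same side in Treg and CD4.

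**Figure D3:**
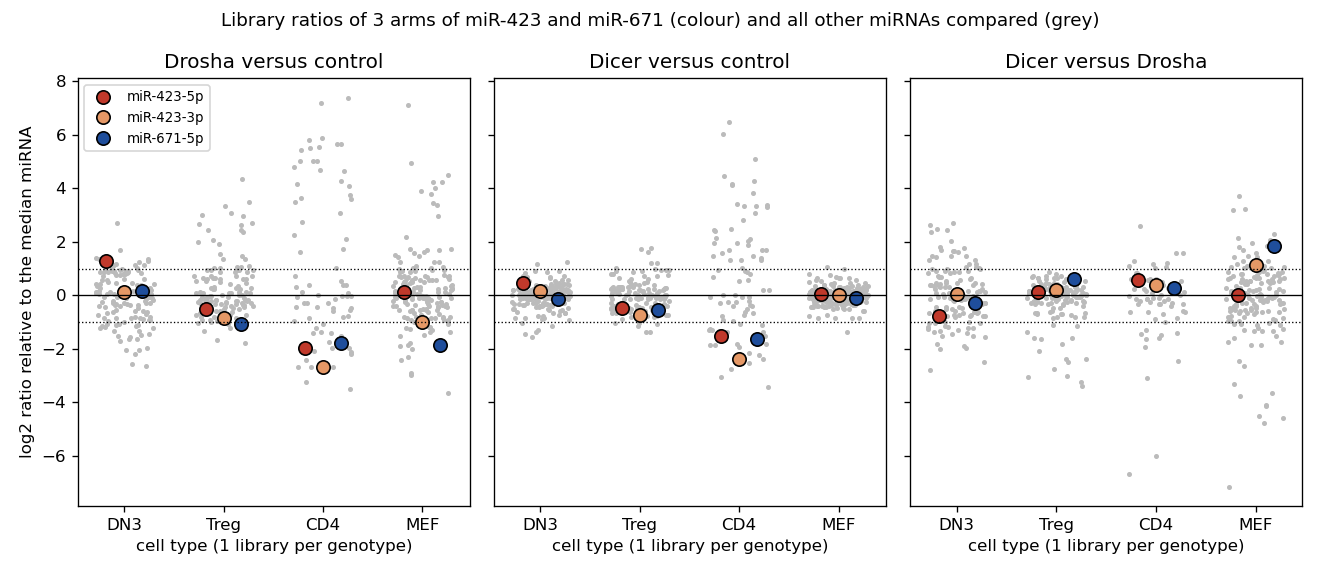
Log2 ratio between 2 libraries of 1 cell type, relative to the median miRNA, for miR-423-5p, miR-423-3p and miR-671-5p (coloured) and all other miRNAs compared (grey), in 3 panels by comparison. Dotted lines mark 1 log2 unit. In the Drosha panel miR-423-5p lies at 1.27 in DN3 and -1.96 in CD4, and in the Dicer panel all 3 arms lie within the lines in DN3, Treg and MEF.

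Averaged over the 4 cell types with limma, a linear model that takes cell type as a block, the change from control to Drosha was -0.93 ± 0.57 (SE, log2) for miR-423-5p, -1.77 ± 0.58 for miR-423-3p and -1.80 ± 0.52 for miR-671-5p. The median over the 185 miRNAs fitted was -0.52, and with median-of-ratios scaling -0.21. On that scale the arms were at -0.29, -1.13 and -1.15. None of the 185 (0%) passed the threshold of 0.05 after Benjamini-Hochberg adjustment in limma, and 37 had an unadjusted p under 0.05. Without CD4 the means were -0.16 for miR-423-5p, -1.04 for miR-423-3p and -1.37 for miR-671-5p, so the CD4 libraries carried most of the mean of miR-423-5p.

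The Dicer libraries were set against the same control libraries in the same way, and the need of an arm for the cytoplasmic cut was likewise not tested. In DN3 the 3 arms lay at 0.48 (miR-423-5p), 0.16 (miR-423-3p) and -0.13 (miR-671-5p) relative to the median miRNA, inside the fold, which 5.06% of 158 miRNAs passed. In Treg they lay at -0.47, -0.73 and -0.54, also inside, against 8.82% of 136. In MEF they lay at 0.03, 0.03 and -0.09, and 1.52% of 197 miRNAs passed the fold. The deposited MEF values of control and Dicer differed by 1.11-fold, 1.11-fold and 1.2-fold, all lower in Dicer, so the sign of both miR-423 arms turns with the scaling. A loss common to every miRNA would leave such relative values as they are.

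CD4 Dicer again lay below control, at -1.5 for miR-423-5p, -2.39 for miR-423-3p and -1.62 for miR-671-5p. In this pair of libraries 30.0% of 90 miRNAs were 1 unit or more below the median miRNA. The deposited values were 3.39-fold, 6.26-fold and 3.67-fold lower, and 2.18-fold, 4.02-fold and 2.36-fold lower with miR-689 left out. Other high entries stayed in here too, such as miR-1937a at 57258 in CD4 Dicer against 6740 in control. Of the 90 miRNAs, 35 stood 1 unit or more above the median miRNA, miR-709 (17258 against 1170) and miR-1959 (14355 against 190) among them. The 3 arms rest on about 187, 45 and 45 reads in CD4 Dicer. Only 68.0% of the low values of this library were whole at the step used. The list holds pairs such as 656 and 645, 820 and 806, and 984 and 968, so 1 step does not cover it. The mean change over cell types was -0.50 ± 0.57 for miR-423-5p, -0.87 ± 0.58 for miR-423-3p and -0.73 ± 0.52 for miR-671-5p (SE, log2), and without CD4 it was -0.08, -0.27 and -0.35. The median over all 185 was -0.09, or 0.24 with median-of-ratios scaling, under which the arms were at -0.05, -0.42 and -0.28. In limma 0 of 185 miRNAs (0%) passed, with 4 at an unadjusted p under 0.05.

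The Dicer and Drosha libraries were also set against each other. In MEF miR-671-5p was 5.58-fold higher in Dicer than in Drosha and miR-423-3p 3.42-fold higher on the deposited scale. These are 1.86 and 1.15 log2 units above the median miRNA, a side on which 16.6% of 169 miRNAs passed the fold, and miR-423-5p lay at 0.00, or 0.62 on the deposited scale. In Treg the arms lay at 0.12 (miR-423-5p), 0.19 (miR-423-3p) and 0.61 (miR-671-5p), and in CD4 at 0.58, 0.40 and 0.28. On the deposited scale the 3 arms were 2.83-fold, 2.51-fold and 2.30-fold higher in CD4 Dicer than in CD4 Drosha, so in CD4 they pass the fold there and not relative to the median miRNA. In DN3 they lay at -0.79, 0.06 and -0.28. The percentages past the fold on either side were 11.5% of 139, 29.6% of 71 and 34.3% of 137. The mean changes were 0.43 ± 0.57, 0.90 ± 0.58 and 1.07 ± 0.52 (SE, log2), against a median of 0.40 over all 185. In limma 1 miRNA (0.541%) passed here, miR-320, and none of the arms did.

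Lists of other miRNAs place these values. The short hairpin or mirtron list, miRNAs known as background to form without Drosha, had 2 to 3 of its 7 members compared in each cell type. In Drosha against control, all members compared in Treg (2), CD4 (3) and MEF (2) stood 1 unit or more above the median miRNA, and in DN3 1 of 2 did. Of all miRNAs 24 of 130 in Treg, 29 of 76 in CD4, 28 of 169 in MEF and 13 of 139 in DN3 did. In the list of 22 miRNAs that need both enzymes, the median was 0.07 in DN3 (19 compared), 0.10 in Treg (21), -0.45 in CD4 (15) and 0.20 in MEF (16), against 0 for all miRNAs by construction. Of that list 2, 0, 5 and 1 members stood 1 unit or more below the median miRNA in DN3, Treg, CD4 and MEF, against 25 of 139, 7 of 130, 20 of 76 and 23 of 169 of all miRNAs. Above it by as much stood 2, 2, 3 and 1 members. miR-671-5p lay below that list's median in Treg, CD4 and MEF and above it in DN3.

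The pattern over libraries was compared with the 51 miRNAs listed in all 12, by Pearson correlation of log2 values relative to the library median. miR-423-5p was most like miR-423-3p (r = 0.95), miR-328 (0.94) and miR-210 (0.90). miR-423-3p was most like miR-671-5p (0.96), miR-423-5p (0.95) and miR-186 (0.95). miR-671-5p was most like miR-423-3p (0.96), miR-186 (0.94) and miR-744 (0.92). The 12 points share 4 cell types, both kinds of list and the high CD4 control library, so these r are a description. Without the 3 CD4 libraries the closest to miR-423-5p were miR-185 (0.99), miR-22 (0.97) and miR-328 (0.96), and its r was 0.92 with miR-423-3p and 0.79 with miR-671-5p over 9 libraries. On those 9 libraries miR-423-3p and miR-671-5p had an r of 0.94.

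The DN3 and Treg lists give each sequence with its own value, which shows where the listed sequences start and end. Whether an end was left by the cut or changed afterwards was not tested. All listed sequences of the 3 arms match the RefSeq hairpins base for base, with 7 distinct sequences for miR-423-5p, 6 for miR-423-3p and 5 for miR-671-5p. The forms below show the ends discussed next, with bases beyond the RefSeq form in capitals, written as DNA as in the lists.
miR-423-5p, 1 base longer: tgaggggcagagagcgagactttT
miR-423-5p, 1 base shorter: tgaggggcagagagcgagactt
miR-423-3p, 1 base longer at the 5′ end: Aagctcggtctgaggcccctcagt
miR-671-5p, 1 base longer: aggaagccctggaggggctggagG
miR-671-5p, 2 bases longer: aggaagccctggaggggctggagGT

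Both 5p arms had 1 listed start in all 6 libraries, the end that Drosha makes, and differed only at the 3′ end. In Treg the floor of 10 would correspond to 4.74%, 10.8% and 7.35% of miR-671-5p in control, Drosha and Dicer. A rarer start could go unseen there. A single start was also seen in 54.0% to 65.0% of the 96 to 107 miRNAs with a summed value of at least 50 and at least 90% of it placed on their hairpin. miR-423-5p in the RefSeq form made up from 55.0% to 64.0% of its arm. The form with 1 more U at the end made up from 13.0% to 19.0%, and the shorter forms of 18 to 22 bases together from 17.0% to 31.9%. Shorter forms were less in DN3 control (17.0%) and DN3 Drosha (18.5%) than in DN3 Dicer (26.4%) and the 3 Treg libraries (28.3% to 31.9%).

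miR-671-5p had a less fixed 3′ end, on the side that Dicer cuts. The RefSeq form held from 32.0% to 49.4% of the arm, the form with 1 more base from 27.1% to 40.3%, and the form with 2 more bases from 13.3% to 26.6%. In DN3 Drosha the most frequent end held 32.0%, the lowest share of 100 miRNAs in that library, against a median of 65.9%. In DN3 control the main end held 46.2% (number 23 from the lowest of 106) and in DN3 Dicer 40.5% (number 8 of 107). In Treg the order differed, with 49.4% in Drosha (number 33 of 101), 40.3% in control (16 of 96) and 43.7% in Dicer (20 of 103). In Treg control the form with 1 more base, at 81, was above the RefSeq form at 73, while in Treg Drosha they were 26 and 41 and in Treg Dicer 43 and 55. Values this close to the floor of 10 leave out rarer forms: forms of 22 bases were listed in 4 of 6 libraries, from 15 to 56, and were not listed in Treg Drosha and Treg Dicer.

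miR-423-3p was the most uniform arm at its 3′ end and the arm with a further listed start. Its RefSeq form held from 76.3% to 79.6% of the arm, and no listed form was longer at the 3′ end. The form with 1 extra A at the 5′ end, on the side that Dicer cuts, was listed in 6 of 6 libraries at values of 24 to 51. With its shorter variant it made up 7.66% of the arm in DN3 control, 6.62% in DN3 Drosha and 4.58% in DN3 Dicer. In Treg it made up 5.14%, 7.48% and 4.59% in control, Drosha and Dicer. The shorter variant was at 10 to 12, next to the floor of 10, and was listed in 3 of 6 libraries. Without it the shares were 6.20%, 6.62% and 4.58% in DN3 control, Drosha and Dicer, and 4.13%, 4.99% and 4.59% in Treg. The order of control and Drosha in DN3, and the lowest library in Treg, thus depend on that variant. The extra base moves the seed to AGCUCGG, which no mature miRNA of the RefSeq table has.

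**Figure D4:**
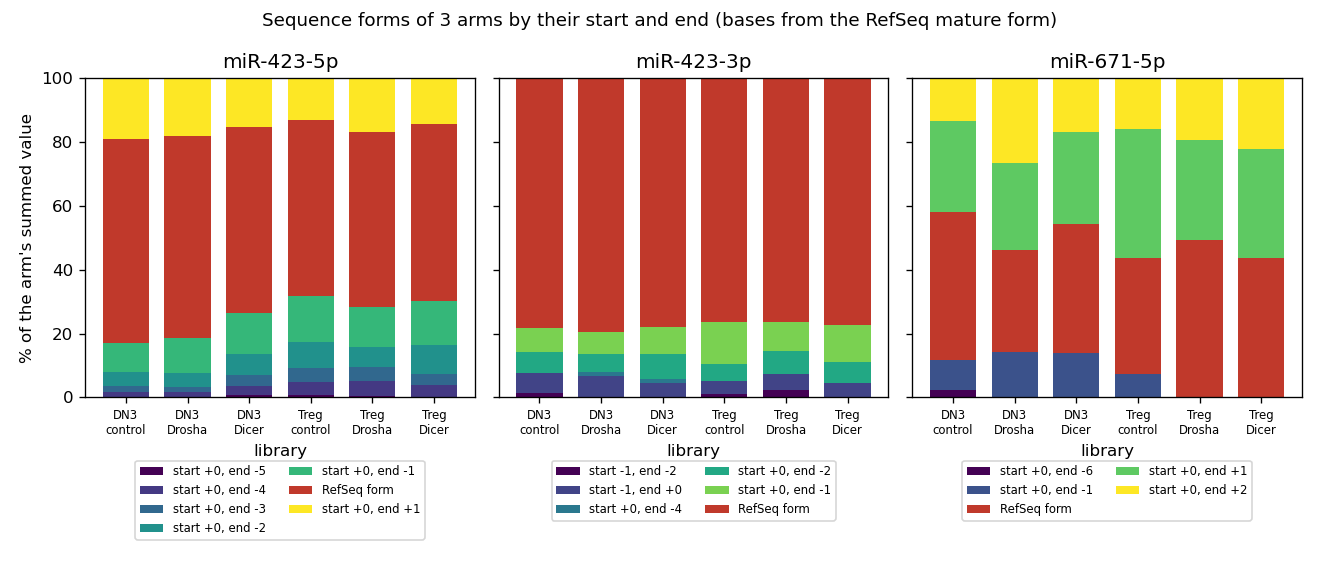
Stacked bars of the sequence forms of miR-423-5p, miR-423-3p and miR-671-5p as % of the arm's summed value, in the 6 DN3 and Treg libraries. Red is the RefSeq form, other colours are forms that start or end the stated number of bases from it. The RefSeq form holds at least 76.3% of miR-423-3p but at most 49.4% of miR-671-5p.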

How the data were processed

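RNA of 19 to 30 bases (5′ phosphate, 3′ hydroxyl ends) was cloned and sequenced, per the labels' protocols. The deposited values are a score: mapping counts that the authors normalised to nearly equal sums per library (893850 to 1027032) and rounded to whole numbers, per the file headers and the column sums. The header of DN3 Dicer does not say normalised, but its sum is alike. Aligner and genome build are not given in the sources used here. A list of genic sequences in DN3 control was not used. Sequences were summed per miRNA in DN3 and Treg.

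Ratios within a cell type used a pseudocount of 0.5 and miRNAs at 50 or more in both libraries. limma 3.58.1 in R 4.3.3 was fitted to log2(value + 1) of 185 miRNAs, in each cell type whose 3 libraries listed the miRNA, with at least 2 such cell types. P-values were Benjamini-Hochberg adjusted with a threshold of 0.05. The fit was tested on simulated data. The residual spread is that between cell types, and nothing says the libraries are independent cultures or animals beyond their labels. Reads were implied from the steps of the 75 lowest values (tolerance 0.6), with exact Clopper-Pearson 95% intervals, which cover counting error only; copies of 1 molecule cannot be told apart. In CD4 and MEF 100% of these values were whole, except 68.0% in CD4 Dicer and 78.7% in MEF Dicer. Sequences came from the RefSeq table and genes from GENCODE, both on GRCm38.

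Members and lists were chosen with earlier results of these data known. Named were the 4 arms, both comparison lists, the 3 miRNAs most like each arm by Pearson correlation and those that share a seed. Alternatives were the pseudocount, low-value filter, scaling, each cell type left out and the forms counted.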

Additional observations from a re-analysis of the deposited data

Results flagged for a closer look

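miR-423-5p stood on opposite sides of the median miRNA in the Drosha libraries of DN3 and CD4. Its log2 ratio to control was 1.27 in DN3 and -1.96 in CD4. Each value comes from 1 pair of libraries, so the difference between the cell types was not tested. The CD4 Drosha value rests on about 81 reads, in a library where miR-689 took 37.8% of the listed values.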

How the results depend on the processing

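No paired analysis by replicate number was run, since each group has 1 library; the limma fit compares genotypes within cell types, with cell type as the block. Of the values computed under other settings, none turned its direction past a threshold. Dicer against Drosha gave 1 call in limma, 0 with missing values set to 0 or to the library floor, and 3 among the 51 miRNAs listed in all 12 libraries. Leaving out a cell type gave 0 to 2 calls, 2 without Treg and 0 without CD4 or without MEF. For Drosha against control, 0 calls became 7 among the 51, miR-423-3p and miR-671-5p among them and both lower. The arms were picked with these values known, so their calls are no test of them. Leaving out a cell type gave 0 calls there and for Dicer against control. The mean change from control to Drosha ranged, leaving out 1 cell type, from -1.58 to -0.16 for miR-423-5p, -2.31 to -1.04 for miR-423-3p and -2.36 to -1.37 for miR-671-5p.

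With miRNAs of any value compared, the count past 1 log2 unit for Drosha against control was 67 in DN3 (38 before), 57 in Treg (31) and 102 in MEF (51). For Dicer against control it was 15 in DN3 (8), 30 in Treg (12) and 15 in MEF (3). For Dicer against Drosha it was 30 in Treg (16) and 98 in MEF (56). Relative to the library total it was 84 in MEF Drosha against control (12 above and 72 below, 28 and 23 before) and 5 in MEF Dicer against control (0 and 5, 2 and 1 before). It was 38 in CD4 Dicer against Drosha (34 and 4, 9 and 12 before). The split above and below also moved for Drosha against control in DN3 (7 and 35, 13 and 25 before), Treg (19 and 16, 24 and 7 before) and CD4 (25 and 41, 29 and 20 before). For Dicer against Drosha it moved in DN3 (33 and 14, 24 and 23 before) and MEF (64 and 15, 28 and 28 before). Counting only RefSeq forms, the 5p share of miR-423 was 57.5% in DN3 Dicer, 65.7% in Treg control, 70.6% in Treg Drosha and 69.5% in Treg Dicer. It was 54.2% in DN3 control and 72.1% in DN3 Drosha, so Drosha stayed above control. The cause of these shifts was not tested beyond what each setting adds or removes. The arms are marked as guide in the DN3 and Treg lists, and the CD4 and MEF lists give no such mark. No entry of the arms is marked as precursor or loop, so that setting had nothing to leave out. Depth limits miR-671-3p and all values of CD4 Drosha and CD4 Dicer.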
